A study of Mus musculus with 9 samples.

Results

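The genes described here are 6 mouse enzymes that supply or purify the deoxynucleotides used for DNA synthesis: Rrm1, Rrm2, Tyms, Tk1, Dut and Dck. They were read on 9 arrays of total RNA from mouse prostate epithelial cells of 2 lines, 1 wild-type and 1 Rb-/-. All probe sets whose annotated gene symbol included 1 of the 6 were taken, which gave 10 of the 12422 probe sets on the array and 6 of the 8251 genes with a symbol. Of the 10 probe sets, 8 were annotated to a single gene. The other 2 were annotated to both Tyms and its pseudogene Tyms-ps, and no probe set was annotated to Tyms alone. The 4 groups were the Rb-/- line kept for 48 hours without serum (2 arrays), the Rb-/- line in 5% fetal bovine serum (2 arrays), the wild-type line kept for 48 hours without serum (2 arrays) and the wild-type line in 5% fetal bovine serum (3 arrays). The comparisons ask how the level of each enzyme's mRNA differed without and with serum in each line, and between the lines in each medium. With 1 line for each genotype, line and genotype cannot be told apart. Nothing in the labels ties arrays to separate cultures, so the p-values measure only the spread between arrays, which may be technical.

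DNA replication draws on 4 deoxynucleoside triphosphates. Ribonucleotide reductase makes deoxynucleotides from ribonucleotides, and its large subunit, Rrm1, carries the catalytic site while its small subunit, Rrm2, carries the radical that starts the reaction. Thymidylate synthase (Tyms) methylates dUMP to dTMP, thymidine kinase 1 (Tk1) makes dTMP from recycled thymidine, dUTPase (Dut) hydrolyses dUTP so that uracil stays out of DNA, and deoxycytidine kinase (Dck) phosphorylates salvaged deoxycytidine, deoxyadenosine and deoxyguanosine. Genes of this pathway are well known as targets of the E2F transcription factors, which the retinoblastoma protein, the product of Rb1, represses before S phase, and cells without serum generally leave the cycle.

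Values are intensities after quantile normalisation of the deposited values between arrays, a scale on which every array has the same distribution. Intensities of different probe sets are not comparable as transcript levels. Values below 196.7, the percentile 25 of all values, were raised to that floor, log2 intensities were compared with limma in 1 fit over the 9 arrays, and adjusted p-values were taken over the 9686 probe sets above the floor on at least 2 arrays. A probe set counted as called below an adjusted p of 0.05. Of the Rb1 probe sets, 161858_f_at lay under the floor on every array, wild-type included, and was not tested. Rb1 97948_at read 171 and 167 in Rb-/- cells without serum and 114 and 109.5 in Rb-/- cells in serum, all under the floor. In wild-type cells it read 386 and 370.4 without serum and 714, 398 and 368 in serum. It was at least 1.92-fold lower in Rb-/- cells without serum (adjusted p = 0.0222) and at least 2.40-fold lower in serum (adjusted p = 0.00435). Wild-type serum array 1 stood apart, with Spearman correlations of 0.986 and 0.984 with the other two arrays of its group, which correlated at 0.997. All 9 measured prostate epithelium markers were above the floor on every array, Krt8, Krt18 and Krt19 among them. Of the markers of other cell types, Lum (fibroblast), Myh11, Acta2 and Cnn1 (smooth muscle), Tek (endothelium) and Ptprc (leukocyte) lay below the floor on every array, while 5 of 6 fibroblast, 1 of 4 smooth muscle, 2 of 4 endothelial and 4 of 5 leukocyte markers lay above it on every array.

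The promoters of 4 of the 6 genes are shown. Rrm1, Rrm2 and Dck had a probe set that was lower without serum in both lines, and Dut had none. Tk1 also had such a probe set, as did Tyms through the probe sets shared with Tyms-ps. The windows of Tyms and Tk1 are not shown and, like that of Dut, held none of the motifs searched for. The windows shown therefore do not tell whether motifs go with the serum response. Each window runs from 250 bases before to 50 bases after the gene start in RefSeq's GRCm38.p6 annotation and is written 5′ to 3′ on the gene's strand. The windows are chr7:102441445-102441744 on the plus strand for Rrm1, chr12:24708004-24708303 on the plus strand for Rrm2, chr5:88764763-88765062 on the plus strand for Dck and chr2:125247265-125247564 on the plus strand for Dut. Capitals mark the CCAAT box in Rrm1 and Rrm2 and, on the opposite strand, the CHR element (TTTGAA) in Dck.
Rrm1: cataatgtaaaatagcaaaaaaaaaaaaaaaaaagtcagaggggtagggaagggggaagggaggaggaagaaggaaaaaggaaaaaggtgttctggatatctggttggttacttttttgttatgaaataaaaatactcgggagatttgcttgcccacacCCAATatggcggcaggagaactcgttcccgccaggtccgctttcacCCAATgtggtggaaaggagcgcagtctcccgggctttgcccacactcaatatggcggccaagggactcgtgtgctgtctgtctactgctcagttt
Rrm2: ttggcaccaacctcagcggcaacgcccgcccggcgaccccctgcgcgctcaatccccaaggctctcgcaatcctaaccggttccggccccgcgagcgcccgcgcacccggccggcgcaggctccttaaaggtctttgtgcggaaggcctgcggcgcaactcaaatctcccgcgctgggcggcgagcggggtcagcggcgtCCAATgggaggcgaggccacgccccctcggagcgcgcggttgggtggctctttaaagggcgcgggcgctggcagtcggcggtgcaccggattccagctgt
Dck: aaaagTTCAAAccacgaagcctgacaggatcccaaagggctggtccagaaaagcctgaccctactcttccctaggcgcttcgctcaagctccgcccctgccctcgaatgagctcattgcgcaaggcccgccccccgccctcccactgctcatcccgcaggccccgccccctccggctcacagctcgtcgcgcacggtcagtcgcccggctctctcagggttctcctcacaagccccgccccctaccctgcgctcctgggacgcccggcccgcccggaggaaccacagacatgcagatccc
Dut: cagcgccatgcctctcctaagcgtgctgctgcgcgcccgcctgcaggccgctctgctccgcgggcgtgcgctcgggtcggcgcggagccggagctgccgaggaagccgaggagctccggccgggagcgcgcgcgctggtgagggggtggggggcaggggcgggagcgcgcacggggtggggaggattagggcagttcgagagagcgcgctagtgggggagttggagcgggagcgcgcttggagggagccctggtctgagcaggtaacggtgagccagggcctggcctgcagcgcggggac

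All 6 genes had a window in the RefSeq table, and both strands were searched for exact words. CCAAT occurred at 2 places in Rrm1, starting at -91 and -45 relative to the gene start, and once in Rrm2, at -50. That box was in 37.4% of the 32851 windows of the table. The CHR element was in the Dck window, at -245, and in 17.9% of all windows. None of the E2F words TTTCCCGC, TTTCGCGC, TTTGCCGC and TTTGGCGC was in any of the 6 windows, against 2.26% of all windows, and Tyms, Tk1 and Dut held none of the 3 motifs. The share of G and C was 47% for Rrm1, 71.3% for Rrm2, 53% for Tyms, 50.7% for Tk1, 75% for Dut and 67% for Dck. A match of these words describes the sequence, and its absence shows only that these letters are not in this window.

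Serum withdrawal lowered the intensity of 6 of the 10 probe sets in the Rb-/- line, where 6.42% of all tested probe sets were called lower and 7.5% higher. It lowered 6 of the 10 in the wild-type line as well, where 9.25% of all were called lower and 6.61% higher. None of the 10 was called higher in either line. In both lines the 6 were Rrm1 100612_at, Rrm2 102001_at, both probe sets annotated to Tyms and Tyms-ps, Tk1 96081_at and Dck 98071_f_at. In each of them the serum-free and serum arrays of a line did not overlap. In the Rb-/- line the uncalled Tk1 161150_at and Dck 98072_r_at (lower) and Dut (higher) did not overlap either. Lack of overlap therefore does not set the 6 apart in that line, and its share over all tested probe sets was not counted. The median log2 difference of the 10 was -1.11 in the Rb-/- line and -1.05 in the wild-type line, against 0.00 and 0.05 over all tested probe sets. Dut and the dimmer probe sets of Rrm1, Tk1 and Dck were not called. Fewer cells in S phase and less transcript per cell cannot be told apart in RNA from whole cultures.

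**Figure D1:**
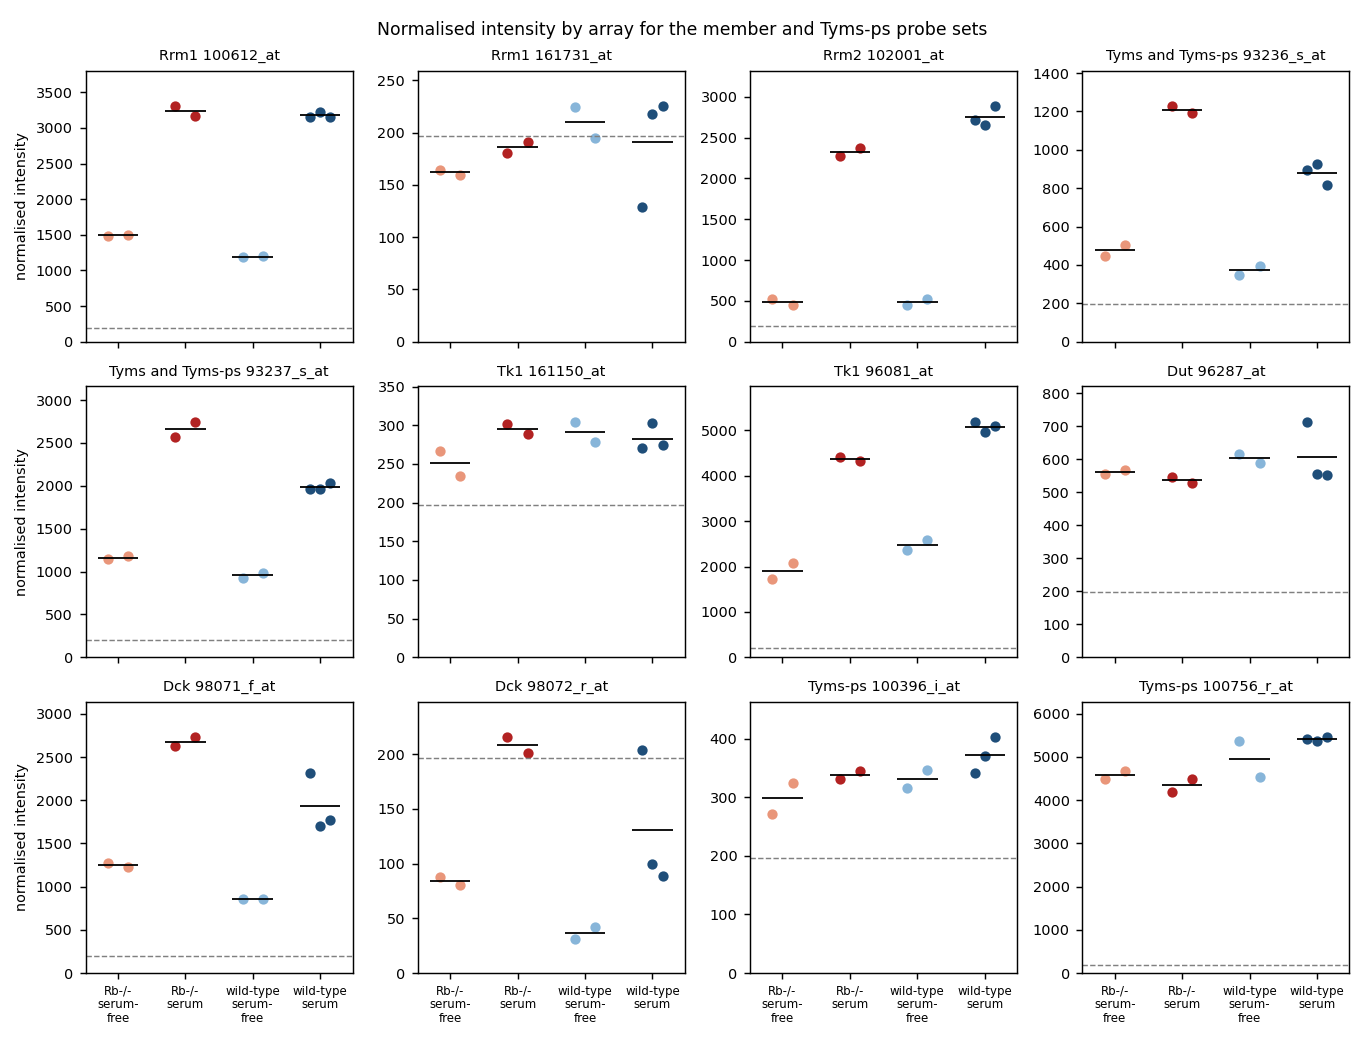
Normalised intensity (linear axis from 0) on each array, a panel for each probe set, for the Rb-/- serum-free, Rb-/- serum, wild-type serum-free and wild-type serum groups from left to right. Points are arrays, the black bar is the group mean and the dashed line is the floor at 196.7; Rrm2 102001_at lies between 445 and 519 on the 4 serum-free arrays and between 2279 and 2887 on the 5 serum arrays, while Dut lies between 528 and 714 on all 9.

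Rrm2, the small reductase subunit, had the largest response of the 10 probe sets. Its intensities were 519 and 449.8 on the Rb-/- serum-free arrays, against 2279 and 2369 on the Rb-/- serum arrays. In wild-type cells they were 445 and 519 without serum, against 2717, 2659 and 2887 in serum. All 4 serum-free arrays lay far below all 5 serum arrays, and the serum-free arrays of the lines overlapped. Rrm2 was 4.81-fold lower without serum in the Rb-/- line, a log2 difference of -2.27 (SE 0.11, limma adjusted p = 3.95e-06), and 5.73-fold lower in the wild-type line, a log2 difference of -2.52 (SE 0.10, adjusted p = 1.52e-06). Of the 9686 tested probe sets, 10 had a lower difference than Rrm2 in the Rb-/- line and 3 in the wild-type line.

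Rrm1, the large catalytic subunit, responded less. Probe set 100612_at averaged 1490 ± 10.7 in Rb-/- cells without serum and 3237 ± 98.7 in Rb-/- cells in serum (SD, n = 2 each). It averaged 1194 ± 16.1 (SD, n = 2) in wild-type cells without serum and 3176 ± 38.8 (SD, n = 3) in wild-type cells in serum. The single arrays read 1483 and 1498 in Rb-/- cells without serum, 3307 and 3168 in Rb-/- cells in serum, 1182 and 1205 in wild-type cells without serum, and 3149, 3220.4 and 3159 in wild-type cells in serum. The serum groups of the lines overlapped, and the serum-free groups did not, with both Rb-/- arrays above both wild-type arrays. Before normalisation the serum groups did not overlap, at 3693 and 3421 in Rb-/- cells against 3225, 3108 and 2951 in wild-type cells. Rrm1 was 2.17-fold lower without serum in the Rb-/- line (log2 difference -1.12, SE 0.07, adjusted p = 1.07e-05) and 2.66-fold lower in the wild-type line (log2 difference -1.41, SE 0.06, adjusted p = 1.66e-06). The other Rrm1 probe set, 161731_at, was above the floor on only 3 arrays, with values from 129 to 226 over all 9, and was not called in any comparison, though without wild-type serum array 1 it was called lower in Rb-/- cells averaged over the media (log2 difference -0.14, adjusted p = 0.0276).

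Thymidylate synthase was read only through the 2 probe sets that are also annotated to Tyms-ps. The brighter, 93237_s_at, had intensities of 1142 and 1187 in Rb-/- cells without serum, against 2572 and 2749 in Rb-/- cells in serum. In wild-type cells it had 925 and 985 without serum, against 1966, 1958.5 and 2029 in serum. Both media separated the lines, with every Rb-/- array above every wild-type array of the same medium. It was 2.28-fold lower without serum in the Rb-/- line (log2 difference -1.19, SE 0.08, adjusted p = 1.49e-05) and 2.08-fold lower in the wild-type line (log2 difference -1.06, SE 0.07, adjusted p = 1.75e-05). The dimmer, 93236_s_at, averaged 476 ± 39.9 without serum and 1209 ± 27.4 in serum in the Rb-/- line (SD, n = 2 each), and 371 ± 34.7 (SD, n = 2) without serum and 880 ± 56.3 (SD, n = 3) in serum in the wild-type line. Its folds were close to those of the brighter one, 2.54-fold lower in the Rb-/- line (adjusted p = 6.26e-05) and 2.37-fold lower in the wild-type line (adjusted p = 4.69e-05).

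The array also carried 2 probe sets annotated to Tyms-ps alone, and neither was called for serum withdrawal. Probe set 100396_i_at ranged from 272 to 403 over the 9 arrays, and its log2 difference was -0.19 in the Rb-/- line (adjusted p = 0.373) and -0.16 in the wild-type line (adjusted p = 0.334). Probe set 100756_r_at ranged from 4198 to 5454, with log2 differences of 0.08 in the Rb-/- line (adjusted p = 0.68) and -0.13 in the wild-type line (adjusted p = 0.279). How much of the signal of the shared probe sets came from each gene was not tested.

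Tk1, the salvage kinase for thymidine, had 2 probe sets that differed in brightness and in response. Probe set 96081_at had intensities of 1731 and 2079 in Rb-/- cells without serum, against 4411 and 4334 in Rb-/- cells in serum. In wild-type cells it had 2371 and 2592 without serum, against 5194, 4977 and 5089 in serum. The Rb-/- arrays lay below the wild-type arrays of the same medium, which is the opposite order to the shared Tyms and Tyms-ps probe sets. Before normalisation the lines overlapped in serum, at 4863 and 4670 in Rb-/- cells against 5186, 4856 and 4776 in wild-type cells. They also overlapped without serum. Tk1 96081_at was 2.31-fold lower without serum in the Rb-/- line (log2 difference -1.21, SE 0.09, adjusted p = 3.7e-05) and 2.05-fold lower in the wild-type line (log2 difference -1.04, SE 0.08, adjusted p = 4.49e-05). Probe set 161150_at ranged only from 235 to 305 over the 9 arrays, near the floor, and was not called, with log2 differences of -0.24 (adjusted p = 0.135) in the Rb-/- line and 0.05 (adjusted p = 0.749) in the wild-type line. Without serum it was at -0.22 between Rb-/- and wild-type cells (adjusted p = 0.0931), and after scaling to a common median it was called there (-0.28, adjusted p = 0.0441).

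Dut, which clears dUTP, was the gene with no called probe set. Its intensities were 556 and 567 in Rb-/- cells without serum, against 547 and 528 in Rb-/- cells in serum. In wild-type cells they were 617 and 589.9 without serum, against 714, 557 and 554 in serum. All arrays except wild-type serum array 1, at 714, lay between 528 and 617. The log2 difference on withdrawal was 0.06 in the Rb-/- line (95% interval -0.22 to 0.35, adjusted p = 0.877). In the wild-type line it was -0.00 (95% interval -0.26 to 0.26, adjusted p = 1), and without wild-type serum array 1 it was 0.12. Both intervals exclude differences as large as those of the 6 called probe sets. They cover only the signal of the single Dut probe set on the array. Other genes of the 6, such as Tk1, had both a called and an uncalled probe set.

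Dck, the salvage kinase for deoxycytidine and purine deoxynucleosides, was read by a bright and a dim probe set. The bright one, 98071_f_at, is of a kind whose family suffix marks probes that can hybridise to related transcripts. It had intensities of 1271 and 1225 in Rb-/- cells without serum, against 2630.3 and 2728 in Rb-/- cells in serum. In wild-type cells it had 862 and 856 without serum, against 2321, 1699.9 and 1767 in serum. The Rb-/- arrays lay above the wild-type arrays in each medium, and wild-type serum array 1 stood above the other two arrays of its group. It was 2.15-fold lower without serum in the Rb-/- line (log2 difference -1.10, SE 0.13, adjusted p = 0.000752) and 2.22-fold lower in the wild-type line (log2 difference -1.15, SE 0.12, adjusted p = 0.000262). The dim one, 98072_r_at, reached the floor on only 3 arrays and was not called. Before the floor was applied it read 88 and 80.2 in Rb-/- cells without serum, 215 and 201 in Rb-/- cells in serum, 31 and 42 in wild-type cells without serum, and 203, 99 and 89 in wild-type cells in serum. With the floor at percentile 10 it was called lower without serum in the Rb-/- line (-1.16, adjusted p = 0.0311).

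The withdrawal differences of the 6 called probe sets kept their call in both lines under each of the 17 alternative fits, including those that left out any 1 array. Against all tested probe sets they were also large. In the Rb-/- line between 10 (Rrm2) and 80 (Dck 98071_f_at) of the 9686 probe sets had a lower difference, and in the wild-type line between 3 (Rrm2) and 111 (Tk1 96081_at).

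**Figure D2:**
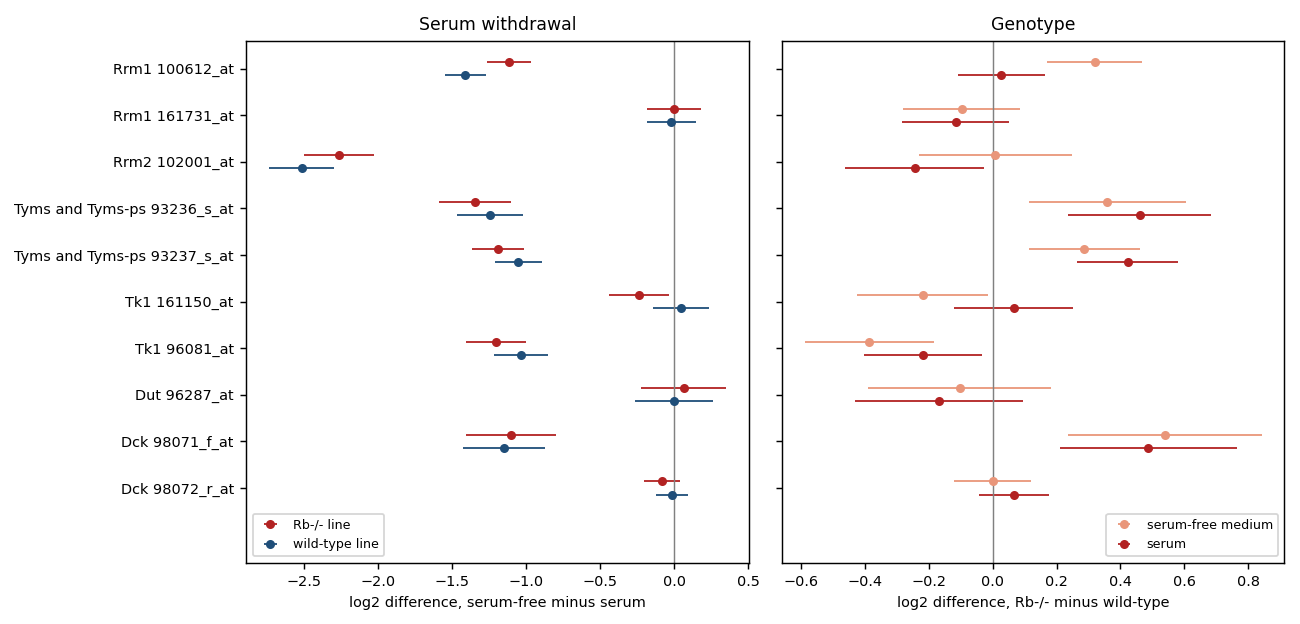
Log2 differences for the 10 probe sets, serum-free minus serum on the left (Rb-/- line above, wild-type line below) and Rb-/- minus wild-type on the right (serum-free medium above, serum below). Points are limma estimates and bars their 95% intervals; the 6 called probe sets lie between -2.52 and -1.04 on the left, and on the right the shared Tyms and Tyms-ps probe sets and Dck 98071_f_at lie above 0 in both media while Tk1 96081_at lies below 0.

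Between the lines, fewer probe sets were called and the differences were smaller. In serum 3 of the 10 were higher in Rb-/- cells and none was lower, where 13.2% of all tested probe sets were called higher and 10.4% lower. In serum-free medium 4 were higher and 1 was lower, against 16.8% and 13.9% of all. Averaged over the media 4 were higher and 1 was lower, against 21.8% and 23.4% of all. Leaving out wild-type serum array 1 gave 3 calls in serum, 5 without serum and 6 averaged, in a fit that called 45.3%, 51.6% and 62.9% of all tested probe sets in these comparisons. Several of the 10 probe sets read the same gene, so the counts are small. Probe sets that were not called also separated the lines, with Rb-/- arrays below wild-type arrays. These were Dut in both media, Rrm2 and Tk1 96081_at in serum, and Tk1 161150_at without serum. Separation of the lines therefore does not set the called probe sets apart, and its share over all tested probe sets was not counted. The median log2 difference of the 10 was 0.05 in serum and 0.00 without serum, against -0.03 and -0.07 over all tested probe sets.

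Dck and the shared Tyms and Tyms-ps probe sets were higher in Rb-/- cells in both media. Dck 98071_f_at was 1.45-fold higher without serum (log2 difference 0.54, SE 0.13, adjusted p = 0.0165) and 1.40-fold higher in serum (0.49, SE 0.12, adjusted p = 0.0194). The shared probe set 93237_s_at was 1.22-fold higher without serum (0.29, SE 0.08, adjusted p = 0.0228) and 1.34-fold higher in serum (0.42, SE 0.07, adjusted p = 0.00274), and 93236_s_at was 1.28-fold higher without serum (adjusted p = 0.0352) and 1.38-fold higher in serum (adjusted p = 0.00962). Averaged over the media the log2 differences were 0.51 for Dck 98071_f_at (adjusted p = 0.00188), 0.35 for 93237_s_at (adjusted p = 0.000704) and 0.41 for 93236_s_at (adjusted p = 0.00206), and these 3 calls held under each of the 17 alternative fits. Tyms-ps 100756_r_at, annotated to the pseudogene alone, went the other way, with a log2 difference of -0.32 in serum (SE 0.07, adjusted p = 0.0128).

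Rrm1 100612_at was 1.25-fold higher in Rb-/- cells without serum (log2 difference 0.32, SE 0.07, adjusted p = 0.00742), and in serum its log2 difference was 0.03 (95% interval -0.11 to 0.16, adjusted p = 0.786). On the values as deposited these differences were 0.53 without serum (adjusted p = 0.00129) and 0.20 in serum (adjusted p = 0.0717). Tk1 96081_at was 1.31-fold lower in Rb-/- cells without serum (-0.39, SE 0.09, adjusted p = 0.0125), and in serum its difference was -0.22 (95% interval -0.40 to -0.03, adjusted p = 0.0875), a value called without Rb-/- serum-free array 1 (adjusted p = 0.0341) or 2 (adjusted p = 0.0358) and at -0.05 on the values as deposited (adjusted p = 0.73). Averaged over the media Rrm1 100612_at was higher by 0.17 (adjusted p = 0.0121, and 0.0646 without Rb-/- serum array 1), or by 0.37 on the values as deposited, and Tk1 96081_at was at -0.30 (adjusted p = 0.00374, and 0.254 on the values as deposited). Rrm2 was not called in either medium, with 0.01 without serum (95% interval -0.23 to 0.25, adjusted p = 0.964) and -0.24 in serum (95% interval -0.46 to -0.03, adjusted p = 0.102). On the values as deposited the Rrm2 difference in serum was -0.07 (adjusted p = 0.651). Dut was not called either, at -0.10 without serum (adjusted p = 0.543) and -0.17 in serum (adjusted p = 0.339), and the value in serum was -0.05 without wild-type serum array 1.

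Each of these genotype calls within a medium was lost when at least 1 of the arrays was left out. Some also depended on the scale or on the filter on low values. With no filter, Dck 98071_f_at lost its limma call in serum (adjusted p = 0.0649) and without serum (0.0556), and 93236_s_at lost its call without serum (0.0612). The Tk1 96081_at difference was not called on the values as deposited (-0.14, adjusted p = 0.281) or after scaling to a common median (-0.18, adjusted p = 0.187), and the deposited serum-free intensities of Tk1 96081_at overlapped, at 1862 and 2175 in Rb-/- cells against 2116 and 2322 in wild-type cells. In serum-free medium the Dck 98071_f_at, 93236_s_at and 93237_s_at calls were each lost when any 1 of the 4 serum-free arrays was left out, with adjusted p-values from 0.0538 to 0.206. The Rrm1 call was lost without wild-type serum-free array 1 (0.0516), and the Tk1 call without wild-type serum-free array 2 (0.0887) or Rb-/- serum-free array 1 (0.0767). Without Rb-/- serum array 1 or 2, the call of 93236_s_at without serum was also lost (0.062 and 0.0618). In serum the Dck call was lost without either Rb-/- serum array (0.0961 and 0.138) or without wild-type serum array 2 (0.0619) or 3 (0.0561), and without wild-type serum array 1 it was 0.63 with an adjusted p of 6.26e-05. Also in serum, 93236_s_at lost its call without Rb-/- serum array 1 (0.0861) or 2 (0.0701), and 93237_s_at without Rb-/- serum array 2 (0.0527). The summed intensities of the fibroblast, smooth muscle, endothelial and leukocyte markers lay lower in Rb-/- than in wild-type cells without serum, with no overlap: 3025 to 3156 against 3704 to 3796 for the 6 fibroblast genes, 900.4 to 917 against 1090.0 to 1166 for the 4 smooth muscle genes, 1295 to 1368 against 1570.0 to 1653 for the 4 endothelial genes and 2156 to 2203 against 2390.0 to 2589 for the 5 leukocyte genes. In serum the sums of Rb-/- cells also lay below those of wild-type cells for smooth muscle (888.8 to 906.6 against 942.3 to 1091) and endothelium (1413 to 1426 against 1466 to 1795), and overlapped for the others. Their part in these differences was not tested, and how often sums of other genes separate the lines was not counted. Of the 4 smooth muscle genes 3 lay below the floor on every array, so values under the floor enter that sum. The sums of the 9 prostate epithelium genes overlapped between the lines in both media. Without serum they were 30570 to 34450 in Rb-/- cells and 31870 to 33120 in wild-type cells.

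The interaction asks whether the lines differed in their response to withdrawal, as the response of the Rb-/- line minus that of the wild-type line. None of the 10 probe sets was called by limma, where 0.454% of all tested probe sets were called higher and 0.475% lower. Before adjustment 2 had a p under 0.05, Rrm1 100612_at and Tk1 161150_at. The share of all tested probe sets with an unadjusted p under 0.05 was not counted, so this 2 has no background beside it. Rrm1 100612_at had an interaction of 0.29 (95% interval 0.09 to 0.49, adjusted p = 0.228), and over the alternative fits the adjusted p ran from 0.0411, without the filter on low values, to 0.805. Rrm2 had 0.25 (95% interval -0.07 to 0.58, adjusted p = 0.575), 93237_s_at -0.14 (-0.37 to 0.10, adjusted p = 0.659), Tk1 96081_at -0.17 (-0.44 to 0.11, adjusted p = 0.64), Tk1 161150_at -0.28 (-0.56 to -0.01, adjusted p = 0.444) and Dck 98071_f_at 0.05 (-0.36 to 0.46, adjusted p = 0.921). The comparisons share arrays: each group enters both a withdrawal and a genotype difference.

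Genes around the 6 enzymes were read from 6 lists of 65 genes, of which 47 had a tested probe set with a single gene, the brightest standing for each gene. In the Rb-/- line 9 of the 47 were lower and 3 higher without serum, and in the wild-type line 16 were lower and 3 higher. Of all 7063 tested genes 6.64% were lower and 7.62% higher in the Rb-/- line, and 9.32% were lower and 7.22% higher in the wild-type line, and the counts of each list below stand beside these shares. The median log2 difference of the 47 was -0.09 in the Rb-/- line and -0.10 in the wild-type line, against 0.00 and 0.05 over all tested genes. Dctd, which makes dUMP from dCMP, was among the 65, and no value of its own is given here. Of 88 calls of single genes looked at by the rule for naming genes, 45 held under each alternative fit, and calls given with values below are among these unless a loss is stated beside them.

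**Figure D3:**
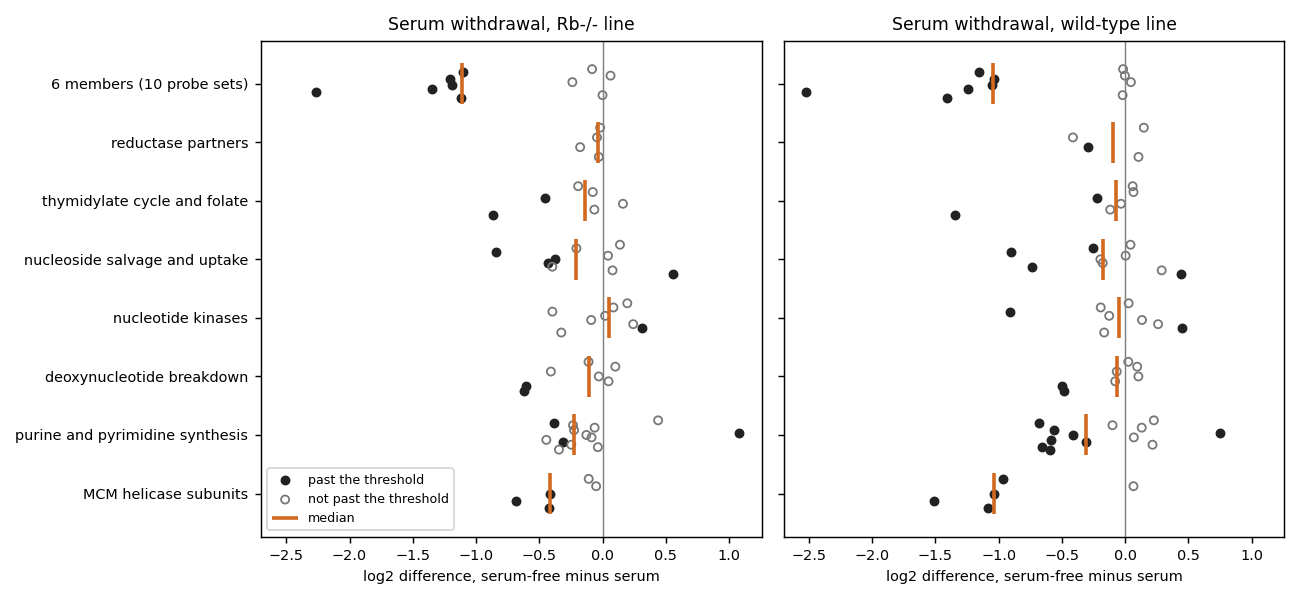
Log2 difference, serum-free minus serum, in the Rb-/- line (left) and the wild-type line (right) for the 10 probe sets of the 6 enzymes and for each tested gene of 7 lists. Filled points passed the threshold, open points did not, and the bar is the median; the 6 enzymes' probe sets have medians of -1.11 and -1.05, the MCM subunits -0.42 and -1.04.

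Among the enzymes that feed or follow thymidylate synthesis, 2 of 6 tested genes were lower without serum in each line, where 6.64% of all genes were lower in the Rb-/- line and 9.32% in the wild-type line. Shmt1, which charges folate with the carbon that Tyms uses, fell in the Rb-/- line (log2 difference -0.86, adjusted p = 0.00159) and in the wild-type line (-1.34, adjusted p = 5.23e-05). Dtymk, which phosphorylates dTMP to dTDP, fell in the Rb-/- line (-0.45, adjusted p = 0.00308). In the wild-type line Dtymk was at -0.22 (adjusted p = 0.0493), a call that held in 5 of the 17 alternative fits. Of the reductase partners, none of 4 was called in the Rb-/- line and 1 was lower in the wild-type line, Txn1, a thioredoxin that reduces the enzyme (-0.30, adjusted p = 0.00282). Rrm2b, the alternative small subunit known for its induction by p53, was not called on withdrawal in either line (-0.03 in the Rb-/- line and 0.11 in the wild-type line).

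Of 9 tested salvage and uptake genes, 3 were lower without serum in the Rb-/- line (Uck2, Slc29a1 and Slc29a2), 3 were lower in the wild-type line (Uck2, Adk and Hprt), and 1 was higher in each line, Tk2. Uck2, a uridine and cytidine kinase, fell in both lines (-0.84, adjusted p = 0.000651, in the Rb-/- line and -0.90, adjusted p = 0.000205, in the wild-type line). Of 8 nucleotide kinases 1 was higher in each line, and 1 was lower in the wild-type line, Nme1, a nucleoside diphosphate kinase (-0.91, adjusted p = 0.00241). Nme1 was at -0.40 in the Rb-/- line (adjusted p = 0.147). Of 7 enzymes of deoxynucleotide breakdown and pool cleaning, 2 were lower and none was higher in each line. Dctpp1, which hydrolyses dCTP and its modified forms, fell in both (-0.60, adjusted p = 0.00115, in the Rb-/- line and -0.50, adjusted p = 0.00169, in the wild-type line). Samhd1, a deoxynucleoside triphosphate hydrolase, fell in the Rb-/- line (-0.62, adjusted p = 0.00343) and was at -0.48 in the wild-type line (adjusted p = 0.0065), where its call was lost with the floor at percentile 40 (adjusted p = 0.998) and without wild-type serum-free array 1 (adjusted p = 0.0845). Of 13 genes of purine and pyrimidine synthesis, 2 were lower and 1 was higher in the Rb-/- line and 7 were lower and 1 was higher in the wild-type line. Ctps, which makes CTP, fell in the wild-type line (-0.68, adjusted p = 0.000779), as did Prps1, which makes the ribose donor PRPP (-0.60, adjusted p = 0.003). Adssl1, the muscle form of adenylosuccinate synthase, rose in the Rb-/- line (1.08, adjusted p = 0.000563).

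Averaged over the media, 17 of the 47 genes were higher and 6 were lower in Rb-/- cells, where 22.6% of all tested genes were higher and 23.9% lower. Shmt1 was higher (log2 difference 0.77, adjusted p = 0.000102), with differences of 1.01 without serum (adjusted p = 0.000459) and 0.53 in serum (adjusted p = 0.00795, and 0.0548 and 0.0788 without Rb-/- serum array 1 or 2). Samhd1 (0.43, adjusted p = 0.000908), Pnp, a purine nucleoside phosphorylase (0.45, adjusted p = 0.00516), Nme1 (0.69, adjusted p = 0.00085), Prps1 (0.51, adjusted p = 0.000557) and Adsl, adenylosuccinate lyase (0.59, adjusted p = 0.00103), were also higher. Ak1, an adenylate kinase, had the largest difference of the 47 in this comparison, 3.80-fold lower in Rb-/- cells (-1.93, adjusted p = 9.81e-08). Adss, the adenylosuccinate synthase found in most tissues, was lower as well (-0.63, adjusted p = 1.57e-05).

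The MCM genes, which encode the replicative helicase and are also known E2F targets, are given beside the 6 enzymes as another S phase group, chosen with earlier results known. Of 5 tested MCM genes, 3 were lower without serum in the Rb-/- line, where 6.64% of all genes were, and 4 in the wild-type line, where 9.32% were, with median log2 differences of -0.42 and -1.04. Mcm3 was at -0.68 in the Rb-/- line (adjusted p = 0.00103) and -1.51 in the wild-type line (adjusted p = 5.6e-06), and Mcm7 was at -0.11 in the Rb-/- line (adjusted p = 0.62) and -0.97 in the wild-type line (adjusted p = 0.00013). The interaction was 0.83 for Mcm3 (SE 0.12, adjusted p = 0.017) and 0.86 for Mcm7 (SE 0.14, adjusted p = 0.0228). The Rb-/- count ran from 1 to 3 over the alternative fits, at 1 after scaling to a common median and without either Rb-/- serum array or Rb-/- serum-free array 2, and the wild-type count was 4 in each. The number of MCM genes called for the interaction ran from 0 to 4 over the alternative fits. With 1 array left out it was 0 without either wild-type serum-free array, either Rb-/- serum array or Rb-/- serum-free array 2, and 4 without wild-type serum array 1. Averaged over the media, 4 of the 5 were higher in Rb-/- cells, where 22.6% of all genes were. Mcm5 went the other way (-0.24, adjusted p = 0.0211), a call that held in 9 of the 17 alternative fits. Without serum, 4 of the 5 were higher in Rb-/- cells, where 17.4% of all genes were. Mcm3 (1.04, adjusted p = 6.31e-05), Mcm7 (0.98, adjusted p = 2e-04) and Mcm4 (0.96, adjusted p = 0.000318) were among them, calls that held in each alternative fit. The brightest probe sets of the enzymes had 0.32 (Rrm1), 0.01 (Rrm2), 0.29 (shared by Tyms and Tyms-ps), -0.39 (Tk1), -0.10 (Dut) and 0.54 (Dck) in the same comparison. Whether the enzymes and the MCM genes differ in their interaction was not tested.

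Across the 9 arrays the 5 responding genes, each by its brightest probe set, varied together as a description of these 4 groups. Pearson's r of log2 intensity ran from 0.749, for Tk1 with Dck, to 0.980, for Rrm1 with Rrm2, while Dut had values from -0.25 to 0.09 with the other 5. The arrays fall into serum and serum-free groups, which sets much of any such value. The 3 genes most like each enzyme, among 4375 probe sets with a log2 range of at least 0.5, were Trim59 (0.993), Tubb6 (0.992) and Hmgb2 (0.991) for Rrm1, and Aurka (0.992), Fasn (0.991) and Plk1 (0.991) for Rrm2. For the shared Tyms and Tyms-ps probe set 93237_s_at they were Cdc6 (0.993), Nup85 (0.992) and Dctpp1 (0.991). For Tk1 they were Cks1b (0.988), Tuba1a (0.985) and Cdc20 (0.983), and for Dck they were Haus3 (0.998), Anln (0.991) and Trip13 (0.990). Dut was most like Atf6b (0.925), 1110032A03Rik (0.900) and Uhmk1 (0.899), among 4376 probe sets.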

How the data were processed

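Total RNA was measured on 9 arrays. The authors deposited linear intensity values, 1 per probe set and array; the software and scaling behind them were not given in the sources used here. Upper quartiles differed by 0.219 (log2), above a limit of 0.1, so the intensities were quantile normalised, floored at percentile 25 (196.7) and taken to log2. Probe sets above the floor on at least 2 arrays were tested (9686, for 7063 genes) with limma 3.58.1 in R 4.3.3: 1 fit of 4 group means, an intensity trend, 5 residual and 4.20 prior degrees of freedom, two-sided tests with Benjamini-Hochberg adjustment over all of them. The procedure was tested on simulated data. The number of arrays limits the precision.

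Gene symbols came from the platform annotation (10832 probe sets with 1 gene, 396 with several, 1194 with none). The members, gene lists and alternatives were chosen with earlier results of these data known. The text names every member, Rb1, the markers, genes most alike in pattern, and pathway genes from up to 3 a list, comparison and direction with the smallest adjusted p among those called.

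Numbers in the array names did not pair the samples: deviations of same-numbered arrays from their group means correlated between -0.23 and 0.33.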

Additional observations from a re-analysis of the deposited data

How the results depend on the processing

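The 60 results of the 10 probe sets (10 in each of 6 comparisons) were recomputed under 17 alternatives: 939 of 1002 values kept direction and side of the threshold, 36 lost a call, 6 gained one and 21 changed direction or came to 0; the cause of these changes was not tested. The single-gene restriction and the crossed pairing were chosen after seeing the data. In both lines, 6 probe sets were called for withdrawal in each leave-one-out fit. For the genotype difference the number called, 3 in serum, 5 without serum and 5 averaged, ran from 0 to 4, from 1 to 5 and from 4 to 6 with 1 array left out, where a group of 2 left with 1 array is assumed to vary like the others. With only single-gene probe sets, which removes the 2 shared with Tyms-ps, it was 1 in serum, 3 without serum and 3 averaged. With no filter on low values it was 3 without serum, and 1 probe set was called for the interaction. With the replicate block the counts were 2 in serum and 5 without serum, and no withdrawal call was lost; Dck 98071_f_at in serum lost its call (adjusted p = 0.0516). Crossing the numbers of the Rb-/- arrays in the block gave 1 call in serum and 4 without serum.

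The changes of direction were in results that were not called. With 1 array left out, Rrm1 100612_at, genotype difference in serum, ran from -0.0033 to 0.059; Rrm1 161731_at, genotype difference in serum-free medium, from -0.19 to 0; and Rrm2 102001_at, genotype difference in serum-free medium, from -0.10 to 0.12. On withdrawal in the wild-type line, Rrm1 161731_at ran from -0.12 to 0.077, Tk1 161150_at from -0.020 to 0.11, Dut 96287_at from -0.064 to 0.12 and Dck 98072_r_at from -0.024 to 0. For the interaction, Rrm1 161731_at ran from -0.077 to 0.12, Dut 96287_at from -0.055 to 0.13 and Dck 98071_f_at from -0.090 to 0.14. With the floor at percentile 10, Rrm1 161731_at was at 0.0069 for genotype in serum, 0.18 for withdrawal in the wild-type line and -0.38 for the interaction, and with either block it was at 0.021 for that withdrawal and -0.021 for the interaction. Samhd1, genotype difference in serum-free medium, called at 0.37, was at 0 with the floor at percentile 40, where it lay at the floor on all serum-free arrays. Over all 9686 probe sets, leaving out 1 array moved the calls of every comparison but the averaged one by over 1.5 times: 2287 between the lines in serum became 877 to 4376, 2971 without serum 1159 to 4981, 1348 on withdrawal in the Rb-/- line 497 to 2280, 1536 in the wild-type line 667 at the lowest, and 90 for the interaction 12 to 255. The interaction had 51 calls with the replicate block, 35 with the crossed one (Mcm3 had an adjusted p of 0.0519 and 0.0589 in these, Mcm7 0.0689 and 0.0721), and 57 with the floor at percentile 10 or no intensity trend; the crossed block left 1420 in serum. Signal over background limits Rrm1 161731_at and Dck 98072_r_at.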
